A study of Mus musculus with 12 samples.

Results

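The transcripts of the mitochondrial genome were followed in whole spinal cord of mice carrying the P278KY allele of Gars and of wt mice. Members were all genes whose name in the deposited files begins with mt-, which gave 37 of 38924 genes. They comprised 13 protein genes, 2 ribosomal RNA genes and 22 transfer RNA genes. RNA came from 12 mice aged 1 week on a B6J;CAST background, with 1 library per mouse. The 4 groups were female P278KY, male P278KY, female wt and male wt, with 3 mice each. P278KY mice carried the allele over a wt copy of Gars and were sampled before disease onset, per the series title. Gars encodes glycyl-tRNA synthetase, which charges glycine onto its tRNAs in both the cytosol and the mitochondrion. The background mixes C57BL/6J with CAST, and the labels do not say which mitochondrial genome each mouse inherited. Each library goes by its labelled sex, genotype and mouse number below.

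Mitochondrial DNA is a small circular genome that is transcribed from both strands as long precursors. The tRNAs lie between most of the other genes, and their excision by RNase P and ELAC2 releases the mRNAs and rRNAs. The encoded proteins are core subunits of respiratory complexes I, III and IV and of the ATP synthase (complex V). All other subunits, and the proteins that transcribe, process and translate mitochondrial RNA, come from nuclear genes. Most mitochondrial mRNAs carry short poly(A) tails, and these libraries were made from poly(A) RNA. In human cells the mRNA of the light-strand gene ND6 is known to lack such a tail.

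Library totals ran from 27713981 to 43219891 expected counts, and libraries of the same group correlated at 0.9913 to 0.9964 across genes on the log2 scale. Gars averaged 131 ± 7.36 CPM (counts scaled to the library total) in P278KY and 124.5 ± 6.74 CPM in wt (SD, n = 6 each), and its level does not check which allele a mouse carried. In 2 wt libraries the sex-linked genes went against the label. Xist, transcribed from the inactive X, stood at 0.533 CPM in female wt 14, where Y-linked Ddx3y stood at 45.1 CPM. In male wt 19 Ddx3y stood at 0.0233 CPM and Xist at 859.8 CPM. Sex in all comparisons is the labelled sex. Summed over 10 skeletal muscle markers, P278KY libraries held 66.7 to 2599 CPM (median 582) and wt libraries held 11.8 to 991 CPM (median 35.1). Markers of neurons summed to 6519 to 7681 CPM in P278KY and 6647 to 8429 CPM in wt, and those of oligodendrocytes to 14107 to 25510 CPM in P278KY and 14078 to 25892 CPM in wt.

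Sequences on which the results turn are given from the GENCODE M21 transcripts on GRCm38, 5′ to 3′. The first is mt-Atp8, the shortest protein gene, at chrM:7766-7969 on the plus strand. Its 3′ end, in capitals, is shared over 43 bases with mt-Atp6, the gene of another ATP synthase subunit.
mt-Atp8: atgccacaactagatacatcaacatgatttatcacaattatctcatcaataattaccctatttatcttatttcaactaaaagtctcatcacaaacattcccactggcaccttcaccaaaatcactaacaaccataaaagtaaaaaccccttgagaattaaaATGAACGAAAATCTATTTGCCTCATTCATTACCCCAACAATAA
The second is mt-Tg, the mitochondrial glycine tRNA charged by glycyl-tRNA synthetase, at chrM:9391-9458 on the plus strand, with its anticodon in capitals.
mt-Tg: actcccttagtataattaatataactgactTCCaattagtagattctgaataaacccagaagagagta
The third is mt-Nd4l, a complex I subunit gene at chrM:9877-10173 on the plus strand. Its first 294 bases are identical to Gm10222, an unprocessed pseudogene at chr1:24612407-24612700 on the minus strand, and the 3 bases beyond that stretch are in capitals.
mt-Nd4l: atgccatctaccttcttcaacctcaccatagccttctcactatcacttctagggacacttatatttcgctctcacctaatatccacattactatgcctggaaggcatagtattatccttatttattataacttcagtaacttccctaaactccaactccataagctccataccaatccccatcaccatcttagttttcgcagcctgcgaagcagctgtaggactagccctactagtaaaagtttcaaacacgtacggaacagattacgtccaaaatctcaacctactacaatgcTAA

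The 22 tRNA genes, 59 to 75 bases long, were listed at an expected count of 0 in all 12 libraries. Each had an effective length of 0 in the deposited files, which means that no fragment of the library's length could start within it. Altogether 2213 genes had an effective length of 0 in every library. The 0 of mt-Tg is therefore no measurement of the glycine tRNA, and levels of the tRNAs were not analysed here. The other 15 members had counts in every library and all 15 passed the filter on low counts, among 17995 genes tested.

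The 15 members together took 7.48% to 9.48% of the counts of a library. By class, complex IV transcripts averaged 3.77% of counts and complex I transcripts 2.56% over the 12 libraries. The complex III gene averaged 0.836%, the complex V pair 0.755% and the rRNA pair 0.654%. In TPM, which divides by effective length, 14 of the 15 stood among the 20 highest of all genes in every library. The exception was mt-Rnr2, the large-subunit rRNA, which ranked 17 to 22.

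Levels between genes were compared per length on 2 scales, because the shortest genes depend on how length is counted. In the deposited TPM, mt-Atp8 was highest at 59483 ± 15237 (SD, n = 12). It was followed by mt-Co2 at 29512 ± 2128 and mt-Co1 at 27762 ± 1449, which encode catalytic subunits of cytochrome c oxidase. The pair mt-Atp6 and mt-Co3, which lie next to each other, averaged 22658 ± 2014 and 22615 ± 1403 TPM and did not differ beyond their spread. Next came mt-Cytb, the cytochrome b gene of complex III, at 15175 ± 828 TPM, and mt-Nd1 at 13036 ± 1157 TPM. The lowest protein gene was mt-Nd5 at 6517 ± 508 TPM, close to the light-strand gene mt-Nd6 at 7110 ± 734 TPM. The rRNAs had the lowest means, with mt-Rnr1 at 5989 ± 716 TPM and mt-Rnr2 at 4832 ± 601 TPM, in libraries selected for poly(A).

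Divided instead by annotated length, mt-Co1 ranked 1 with 14147 CPM per kilobase, and mt-Atp8 ranked 6 with 6168. The effective length of mt-Atp8 was only 33.0 to 38.0 bases of its 204, so its TPM rests on a short stretch of fragment starts. By TPM, mt-Atp8 was the highest gene of all in 11 libraries, and mt-Co1 was highest in female wt 1. mt-Nd4l ranked 9 by TPM and 15 per annotated kilobase, at 2172 CPM per kilobase. These ranks rest on 50% of the counts it shares with the pseudogene Gm10222. With the Gm10222 counts added, it held 3749 to 5025 CPM per annotated kilobase over the libraries.

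**Figure D1:**
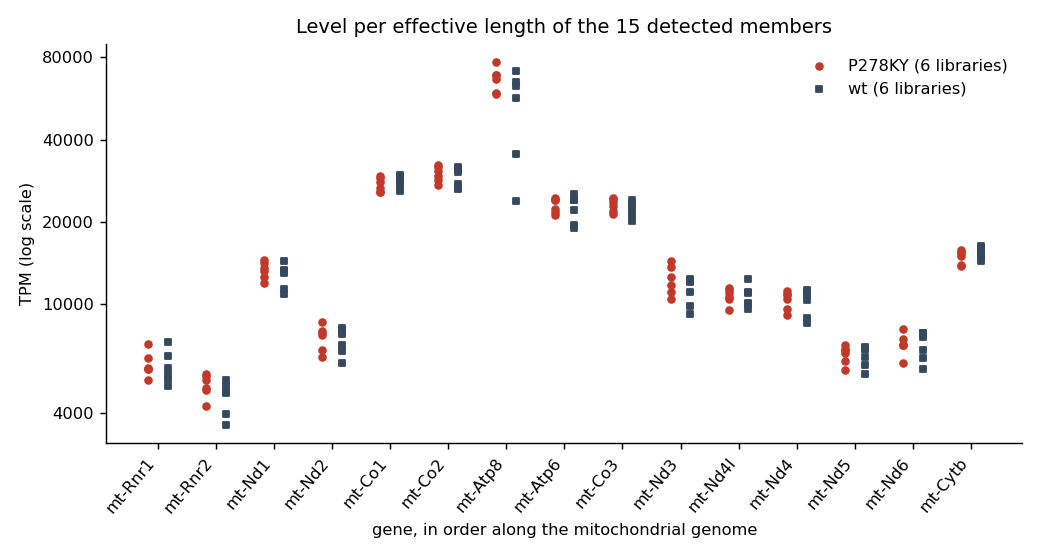
Level of the 15 members with counts on a log axis in TPM, 1 point per library, 6 P278KY libraries left of 6 wt libraries for each gene, with genes in order along the mitochondrial genome. mt-Atp8 is the most spread, from 23955 to 76778 TPM over the 12 libraries, and is highest in all but female wt 1. mt-Rnr1 and mt-Rnr2 are lowest by their means, though mt-Rnr1 lies among the points of mt-Nd5.

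The count of mt-Nd4l, a gene singled out after its values were seen, equalled that of Gm10222 within 0.01 in all 12 libraries, from 17744.5 to 30114.5 expected counts each. The estimator thus gave mt-Nd4l 50% of the fragments shared by the identical stretch, and its level is uncertain for that reason. Of the 9 nuclear genes with at least 90% identity to a member over at least 75 bases, Gm10222 held by far the most counts. Next came Gm13340 on chromosome 2, which matches mt-Co1 at 97.6% over 1545 bases and held 342 counts over all libraries together. Neighbouring genes also overlap: mt-Nd4l and mt-Nd4 over 7 bases, mt-Atp6 and mt-Co3 over 1, and mt-Nd5 and mt-Nd6 over 14 on opposite strands. These stretches are shorter than the tRNA genes, in which no fragment of the library's length fitted. The strand setting of the counting is not given in the sources used here, so reads of mt-Nd6 and of transcripts antisense to it may not be separated.

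The first comparison asked whether the mitochondrial genome took another share of the spinal cord transcriptome in P278KY mice. The share of counts was 8.21%, 7.72% and 9.06% in female P278KY 4, 7 and 10, and 9.46%, 9.27% and 8.46% in male P278KY 3, 5 and 13. It was 7.48%, 9.06% and 7.60% in female wt 1, 2 and 14, and 7.95%, 9.48% and 9.24% in male wt 6, 9 and 19. The groups overlapped over nearly their whole ranges, and the lowest library was female wt 1. Means were 8.70% ± 0.676 in P278KY and 8.47% ± 0.891 in wt (SD, n = 6 each). The difference of 0.230 percentage points was smaller than the pooled SD of 0.791, and it was 0.0328 without female wt 1 and 0.432 without male wt 9.

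Within each labelled sex the P278KY mean was the higher and the libraries overlapped, but single libraries decided the order. Female P278KY averaged 8.33% ± 0.677 and female wt 8.05% ± 0.882 (SD, n = 3 each). The difference of 0.284 percentage points was -0.0799 without female P278KY 10, 0.0008 without female wt 1 and 0.0586 without female wt 14. Male P278KY averaged 9.06% ± 0.531 and male wt 8.89% ± 0.822. This difference of 0.177 points was -0.293 without male wt 6 and -0.0222 without male P278KY 3. Protein genes took 8.02% ± 0.643 in P278KY and 7.84% ± 0.806 in wt, and the rRNAs took 0.681% ± 0.0505 in P278KY and 0.628% ± 0.0981 in wt. By TPM the members took 26.4% ± 1.76 of the total in P278KY and 24.6% ± 3.20 in wt, and without mt-Atp8 19.8% in P278KY and 19.3% in wt. In whole tissue, fewer cells of a type and less RNA per cell cannot be told apart.

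**Figure D2:**
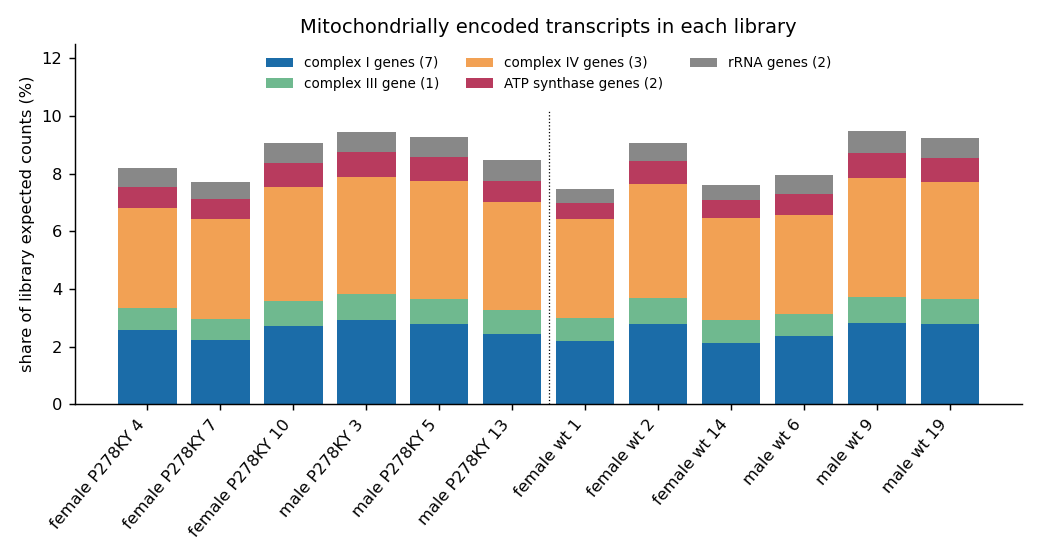
Share of each library's counts held by the mitochondrial genes, in percent, as 1 stacked bar per library with a segment for each class, and P278KY left of wt. P278KY libraries span 7.72% to 9.46% and wt libraries 7.48% to 9.48%.

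The second comparison took each transcript in turn across genotype, with labelled sex as a term. None of the 15 members changed at an edgeR adjusted p under 0.05, where 0.00556% of all tested genes (1 gene, Fgf21) did. At an unadjusted p under 0.05 there were also 0 of 15, against 4.09% of all genes, and DESeq2 called 0 of 15, against 0.185% of its tested genes. The fitted level was higher in P278KY for 12 of 15 and lower for 3 of 15, while 46.9% of all tested genes were higher. The members' median log2 fold change was 0.07, against -0.01 over all genes, with a range of -0.02 to 0.34. Transcripts of 1 precursor are not independent of each other, so the 12 do not count as 12 observations. For no member did all 6 P278KY libraries lie on 1 side of all 6 wt libraries, where 0.222% of all genes did.

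Among the rRNAs, mt-Rnr2 had the smallest p of all members. Its CPM was 4394, 3324 and 4009.9 in female P278KY 4, 7 and 10, and 4726, 4456 and 4079 in male P278KY 3, 5 and 13. In wt it was 3017, 3894 and 2819 in females 1, 2 and 14, and 3648, 4464 and 4251 in males 6, 9 and 19. The lowest values were those of the libraries labelled female wt 14 and female wt 1, and the groups overlapped from 3324 to 4464 CPM. The log2 fold change was 0.19 ± 0.10 (SE), with a 95% interval of -0.03 to 0.40, an unadjusted p of 0.0810 and an edgeR adjusted p of 1.00.

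mt-Rnr1, the small-subunit rRNA, ranged from 2417 to 3187 CPM in P278KY (median 2608) and from 2065 to 3331 CPM in wt (median 2564). The wt range enclosed that of P278KY, and the log2 fold change was 0.07 ± 0.09, with a 95% interval of -0.13 to 0.27.

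In complex V, mt-Atp8 had the largest fitted difference and by far the widest spread. It stood at 1468, 1186 and 1463 CPM in female P278KY 4, 7 and 10, and at 1635, 1389 and 1170.5 CPM in male P278KY 3, 5 and 13. In wt it stood at 492, 1230.3 and 733 CPM in females 1, 2 and 14, and at 1363, 1597 and 1414 CPM in males 6, 9 and 19. The low values were those of the libraries labelled female wt 14 and female wt 1, while the other 4 wt libraries lay inside the P278KY range. Means were 1385 ± 179.5 CPM in P278KY and 1138 ± 431 CPM in wt (SD, n = 6 each). The log2 fold change was 0.34 ± 0.22 (SE), with a 95% interval of -0.15 to 0.83 and an edgeR adjusted p of 1.00. Without female wt 1 it was 0.18, and with the mean muscle marker level as a further term it was 0.54.

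The ratio of mt-Atp8 to mt-Atp6 counts, transcripts that share a precursor and mature as 1 mRNA, moved with these libraries. It was 0.188 to 0.245 in the 6 P278KY libraries and 0.204 to 0.234 in male wt. All 3 labelled female wt libraries lay below these, at 0.0972 in female wt 1, 0.144 in female wt 14 and 0.182 in female wt 2. Counts of 9 nuclear genes of about the length of mt-Atp8, summed, were 25.5 CPM in female wt 1 and 24.4 CPM in female wt 14, inside the range of 21.9 to 28.2 CPM over the 12 libraries. Fragments, taken as length minus effective length, averaged 213.6 ± 3.26 bases in P278KY and 208.7 ± 3.35 bases in wt. They were 209.26 bases in female wt 1, 213.56 in female wt 2 and 203.41 in female wt 14. The range over the 12 libraries was 203.41 to 218.66 bases. The part of fragment length in the mt-Atp8 value was not tested.

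**Figure D3:**
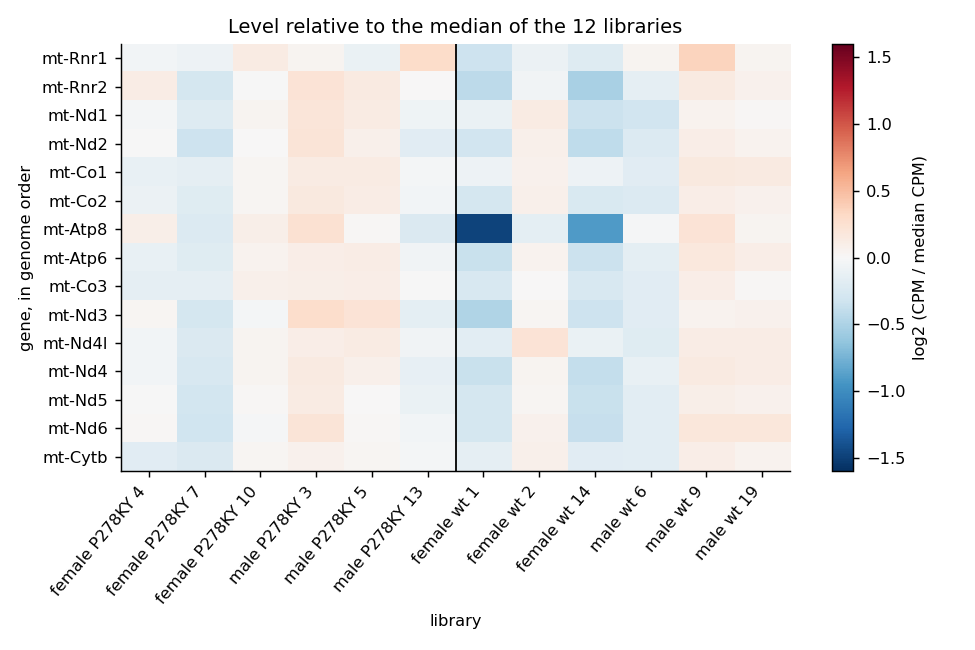
Heat map of log2 CPM relative to the member's median over the 12 libraries, with the 15 members in genome order and P278KY libraries left of wt libraries. mt-Atp8 stands at -1.48 in female wt 1 and -0.91 in the library labelled female wt 14, and these libraries are the 2 lowest for 8 of 15 members.

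In complex I, mt-Nd1, a membrane-arm subunit, ranged from 5078 to 6727 CPM in P278KY (median 5905) and from 4619.98 to 6427 CPM in wt (median 5716). Its log2 fold change was 0.10 ± 0.10, with a 95% interval of -0.11 to 0.30. mt-Nd3, another membrane-arm subunit, ranged from 858 to 1273 CPM in P278KY (median 1046) and from 751 to 1098.5 CPM in wt (median 996). The log2 fold change of mt-Nd3 was 0.15 ± 0.10, with a 95% interval of -0.08 to 0.37. For both genes the ranges overlapped over most of their width.

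The light-strand gene mt-Nd6 ranged from 1067 to 1536 CPM in P278KY (median 1327) and from 1030.05 to 1503 CPM in wt (median 1286). The fold change was 0.04 ± 0.10 on the log2 scale, with a 95% interval of -0.17 to 0.25. Relative to mt-Nd5, its heavy-strand neighbour, mt-Nd6 stood at a TPM ratio of 1.09 ± 0.0391 in P278KY and 1.09 ± 0.0428 in wt (SD, n = 6 each). This ratio thus differed between genotypes by less than its spread between libraries. Because the strand setting of the counting is not given, the ratio cannot be read as the balance of light-strand and heavy-strand transcripts.

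In complex IV, mt-Co2 ranged from 7382 to 9414 CPM in P278KY (median 8443) and from 6971 to 9103 CPM in wt (median 8071), with a log2 fold change of 0.07 ± 0.08. In complex III, mt-Cytb ranged from 7344 to 9003 CPM in P278KY (median 8611) and from 7620.2 to 9238 CPM in wt (median 8401). Its log2 fold change was -0.02 ± 0.07, with a 95% interval of -0.17 to 0.14. mt-Cytb, mt-Co1 and mt-Nd4l were the 3 members fitted lower, at -0.02, -0.01 and -0.01. The 95% interval of mt-Co1, -0.17 to 0.15, holds changes of that size in either direction.

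**Figure D4:**
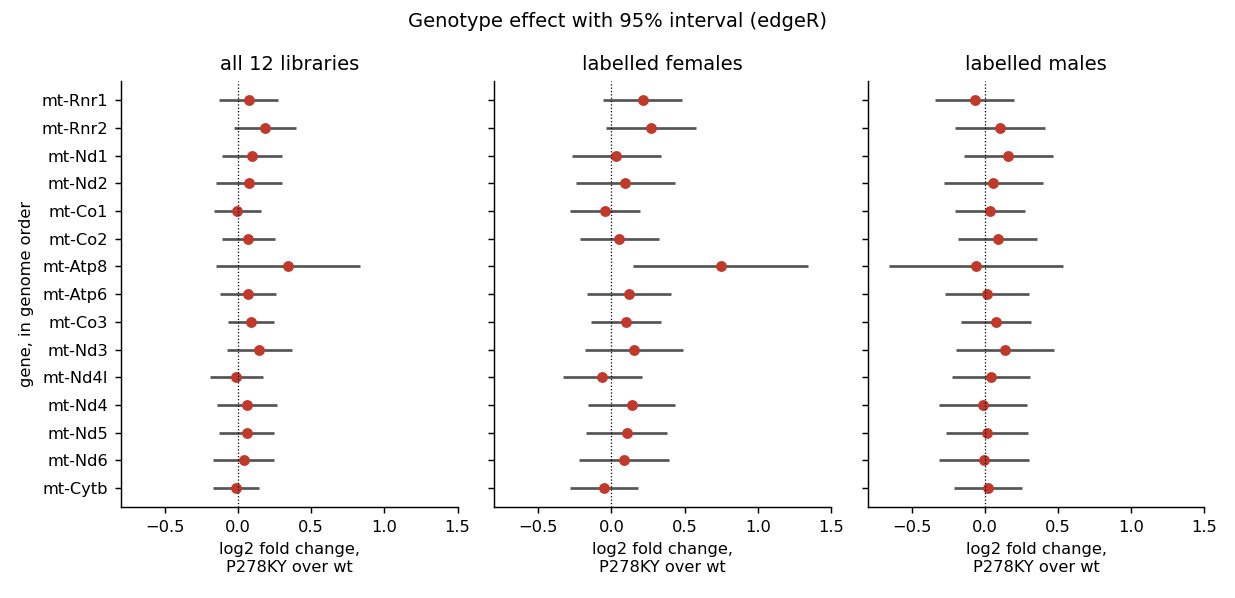
Log2 fold change of P278KY against wt for the 15 members, over all 12 libraries, in labelled females and in labelled males, with 95% intervals from edgeR. The interval of mt-Atp8 in labelled females, 0.15 to 1.35, is the only one that leaves out 0.

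Labelled females and males were then compared separately. In females 0 of 15 members passed at an edgeR adjusted p under 0.05, as did 0% of all genes, and DESeq2 called 0 of 15, against 1.68% of its tested genes. At an unadjusted p under 0.05 there was 1 of 15, mt-Atp8, against 10.7% of all genes. Its log2 fold change was 0.75 ± 0.27, with an unadjusted p of 0.0197 and an edgeR adjusted p of 0.377. It averaged 1372 ± 161 CPM in female P278KY and 818 ± 376 CPM in female wt (SD, n = 3 each), and the groups overlapped through female wt 2 at 1230.3 CPM. The log2 fold change was 0.48 without female wt 1 and 1.16 without female wt 2, where the adjusted p was 0.0903. Leaving out the library labelled female wt 14 gave 0.68.

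Also in females, mt-Rnr2 had a log2 fold change of 0.27 ± 0.14 and an edgeR adjusted p of 0.527. It was 0.18 without female P278KY 4 and 0.42 without female wt 2. mt-Rnr1 was the only member whose 3 female P278KY libraries, at 2468 to 2843 CPM, all lay above the 3 female wt libraries, at 2065 to 2444 CPM. Such a split held for 15.3% of all tested genes. Its log2 fold change was 0.21 ± 0.12, with an edgeR adjusted p of 0.572. In all, 12 of 15 members were fitted higher in female P278KY, where 48.1% of all genes were.

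In males 0 of 15 members passed at an edgeR adjusted p under 0.05 (0% of all genes), 0 of 15 at an unadjusted p under 0.05 (4.91% of all genes) and 0 of 15 by DESeq2 (0.19% of its tested genes). The fitted level was higher in male P278KY for 11 of 15, against 49.3% of all genes, and the number was 4 of 15 without male wt 6 and 7 of 15 without male P278KY 3. The smallest p were those of mt-Nd1, at a log2 fold change of 0.16 ± 0.14 (edgeR adjusted p = 0.961), and mt-Nd3, at 0.14 ± 0.15 (edgeR adjusted p = 0.972). Single libraries moved both: mt-Nd1 was at 0.05 without male wt 6, 0.10 without male P278KY 3 and 0.23 without male P278KY 13. mt-Nd3 was at 0.06 without male wt 6, 0.06 without male P278KY 3, 0.09 without male P278KY 5 and 0.26 without male P278KY 13. mt-Atp8 was at -0.06 ± 0.27 in males. No member had male P278KY libraries wholly on 1 side of the male wt libraries, where 11.5% of all genes did.

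The difference between the female and the male effect was tested as an interaction. For mt-Atp8 it was 0.81 ± 0.38 on the log2 scale, with a 95% interval of -0.04 to 1.65, an unadjusted p of 0.0595 and an edgeR adjusted p of 0.477. Without female wt 2 it was 1.22. For mt-Rnr1 it was 0.28 ± 0.17, with an edgeR adjusted p of 0.586, and it was 0.17 without male wt 9. The female effect was the higher for 10 of 15 members, against 49.2% of all genes. No member passed at an edgeR adjusted p under 0.05 (0% of all genes), 0 of 15 reached an unadjusted p under 0.05 (10.9% of all genes), and DESeq2 called 0 of 15 (1.73% of its tested genes). The effect of the allele on these transcripts was therefore not shown to differ between labelled sexes.

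Nuclear genes that build or run the same system were taken as lists for comparison. None of their members passed for genotype at an edgeR adjusted p under 0.05, where 0.00556% of all tested genes did. For all lists below, the share fitted higher in P278KY over all tested genes was 46.9%, with a median log2 fold change of -0.01. Of 36 nuclear complex I subunit genes, 11 were fitted higher and 25 lower in P278KY, with a median log2 fold change of -0.03. Ndufa11, a membrane-arm accessory subunit, had a log2 fold change of -0.11 ± 0.05, and Ndufv3, an accessory subunit, of -0.10 ± 0.06. Complex III had 2 of 9 and complex IV 2 of 11 genes fitted higher, with medians of -0.02 and -0.01. In complex III, Cyc1, the cytochrome c1 gene, was at -0.07 ± 0.04 and the core subunit gene Uqcrc1 at -0.08 ± 0.07. In complex IV, Cox5b was at -0.17 ± 0.10 and Cox6c at 0.06 ± 0.05. Of 14 tested complex V genes 7 were higher and 7 lower, with a median of 0.00. Atp5h, a peripheral stalk subunit of the ATP synthase, had a log2 fold change of 0.19 ± 0.06. It stood at 129 ± 10.5 CPM in P278KY and 113 ± 8.99 CPM in wt. Its unadjusted p, the smallest of this list, was 0.00941 (edgeR), and 4.09% of all tested genes had an unadjusted p under 0.05. Atp5g1, which encodes the membrane ring subunit, was at a log2 fold change of 0.03 ± 0.04. Complex II, which has no mitochondrially encoded subunit, had 2 of 4 genes higher, with Sdhc at -0.05 ± 0.05 and Sdha at 0.01 ± 0.05.

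The machinery of mitochondrial gene expression gave small values of the same kind. Of 10 genes of mitochondrial transcription 3 were fitted higher, with a median log2 fold change of -0.04. Tfam, which packages mitochondrial DNA and starts its transcription, had a log2 fold change of 0.14 ± 0.09, and Mterf1a (Mterf in the files), a transcription termination factor, of -0.17 ± 0.14. Among 11 genes of mitochondrial DNA replication 4 were higher, with a median of -0.01. Primpol (Ccdc111 in the files), a primase and polymerase, was at 0.14 ± 0.07, and Rrm2b, a ribonucleotide reductase subunit, at 0.11 ± 0.06. Of 19 genes for RNA processing and stability 9 were higher, with a median of -0.002. Trnt1, which adds the CCA end to tRNAs, was at 0.10 ± 0.05, and Fastkd1, an RNA-binding protein of mitochondria, at -0.09 ± 0.04. Of 78 mitochondrial ribosomal protein genes 22 were fitted higher and 56 lower, with a median of -0.03. Mrpl50 of the large subunit was at 0.11 ± 0.05 and Mrps11 of the small subunit at -0.14 ± 0.07.

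Regulators of mitochondrial biogenesis split 4 higher to 4 lower. Esrra, a nuclear receptor that drives respiratory chain genes, was at -0.10 ± 0.06, and Ppargc1b, a coactivator of such receptors, at -0.12 ± 0.09. Of 11 genes of mitochondrial protein quality control 4 were higher. Htra2, a protease of the intermembrane space, was at -0.13 ± 0.06, and Yme1l1, a protease of the inner membrane, at 0.10 ± 0.05. Each of these values came from the same fit of all 12 libraries and had an edgeR adjusted p above 0.05.

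**Figure D5:**
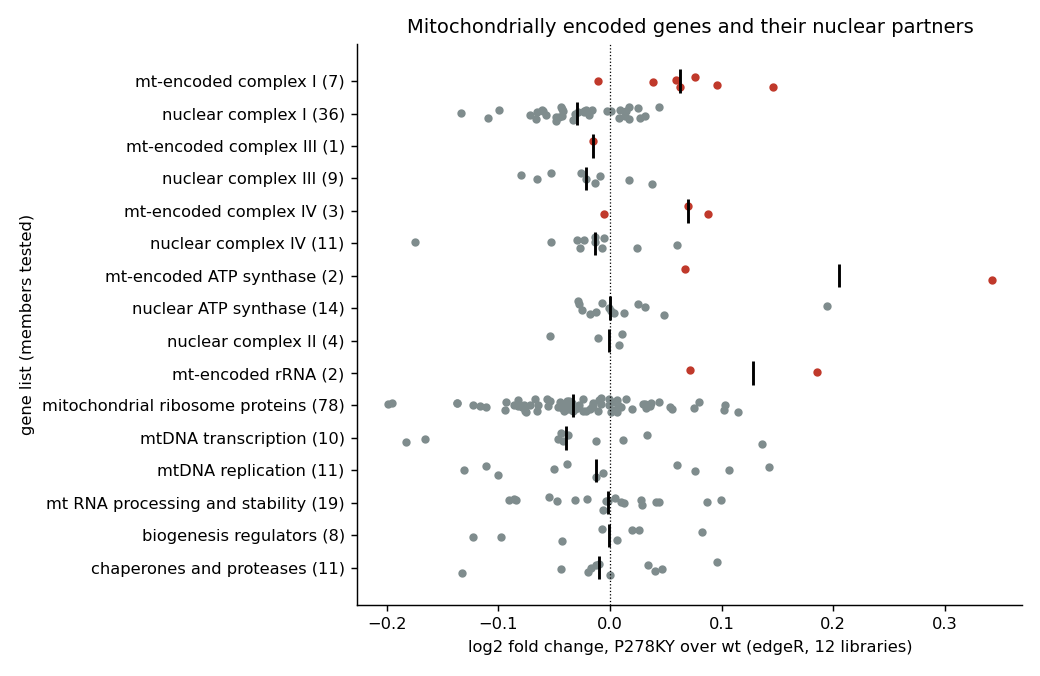
Log2 fold change of P278KY against wt for each tested gene of the mitochondrially encoded classes and of the nuclear lists, 1 point per gene, with a vertical bar at each list's median. The nuclear medians lie between -0.04 and 0.00, and mt-Atp8 is the rightmost point at 0.34.

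Of the skeletal muscle markers, 10 of 10 were fitted higher in P278KY, where 46.9% of all tested genes were. None passed at an edgeR adjusted p under 0.05, where 0.00556% of all tested genes did. The summed level was 329, 1365, 66.7, 2599, 444 and 719.6 CPM in P278KY libraries 4, 7, 10, 3, 5 and 13. It was 62.5, 11.8, 35.7, 14.9, 34.6 and 991 CPM in wt libraries 1, 2, 14, 6, 9 and 19, and none of the 10 markers was at 0 in any library. The genotypes overlapped through male wt 19 and female P278KY 10. With the mean muscle marker level as a further term, 14 of 15 members were fitted higher, with a median log2 fold change of 0.12 and 0 called. Schwann cell markers summed to 437 to 2667 CPM in P278KY and 709 to 3273 CPM in wt, and sensory ganglion markers to 6.93 to 11.3 CPM in P278KY and 8.62 to 273 CPM in wt. The 273 CPM belonged to the library labelled female wt 14 alone, and the other 5 wt libraries held at most 14.2 CPM. That library also had the highest sum of fibroblast markers, at 4571 CPM. P278KY libraries held 1690 to 2919 CPM and the other wt libraries 1124 to 1993 CPM. Its red blood cell markers summed to 4801 CPM, the highest, with male wt 19 close at 4776 CPM. In P278KY they summed to 1919 to 4225 CPM. Female wt 14 is 1 of the libraries with low mt-Atp8 and mt-Rnr2. In female wt 1, the other such library, fibroblast and red blood cell markers had their lowest sums, at 1124 and 1004 CPM. Of the sensory markers, Prdm12 and Mrgprd were at 0 in at least 1 library. The part of attached tissue other than muscle in the mitochondrial values was not tested.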

How the data were processed

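RNA-seq libraries of whole spinal cord were made from poly(A) RNA with stranded KAPA kits and sequenced paired-end, per the labels' protocols. The submitters' processing notes list Bowtie2 2.2.0 and RSEM 1.2.12 without saying what each did. Build, annotation and strand setting were not stated in the sources used here. The deposited files give, per the file headers, expected counts, in which the authors divided fragments among the genes they match, so that near-identical copies can exchange counts. TPM in the deposited files was set by the authors relative to effective length and library total, and the deposited FPKM values were not used. Positions and sequences come from GENCODE M21 (GRCm38), and all 37 members had the same length there as in the files.

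Expected counts were rounded, filtered with filterByExpr to 17995 genes, scaled with TMM and tested with edgeR 4.0.16 quasi-likelihood (robust) in R 4.3.3. Adjustment was by Benjamini-Hochberg over all tested genes, at a threshold of 0.05. Genotype was fitted over 12 libraries with labelled sex as a term. Effects within sex and the interaction came from 1 mean per group, with spread shared by all libraries. CPM are counts over TMM-scaled totals. Only CPM per kilobase and the CPM of the 9 short nuclear genes are counts over plain library totals. Standard errors were the log2 fold change over the root of its F statistic. Alternatives were other scalings and filters, DESeq2 1.42.0, limma-voom and limma-trend (limma 3.58.1) on log2(TPM + 1), a muscle term, and libraries left out. Procedures were tested on simulated data.

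The members and lists were chosen with earlier results of these data known. Values by library, or their range and median in each genotype, are given for the member highest in TPM in each class, both rRNAs, mt-Nd6, mt-Tg and the 2 members of smallest p in each contrast. In each nuclear list the 2 genes of smallest p are named, with their log2 fold changes. In these lists 1 symbol was not matched. Labels give 1 mouse per library, so p-values measure spread between mice.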

Additional observations from a re-analysis of the deposited data

How the results depend on the processing

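No member passed for genotype, within either labelled sex or in the interaction under any scaling, filter, tool or left-out library that was run. When single libraries were left out, the number fitted higher in P278KY ranged from 11 to 15 of 15 (genotype), 10 to 15 (females) and 4 to 15 (males). In the interaction, the number of members with the higher female effect ranged from 7 to 13. It was 5 without the libraries labelled female wt 14 and male wt 19. The difference in share of counts, 0.230 percentage points, ranged from 0.0328 to 0.432 when single libraries were left out and was 0.205 without both of those wt libraries. By TPM it was 1.86 points (26.4% in P278KY, 24.6% in wt). With mt-Atp8 left out of the TPM it was 0.444 points, and with the Gm10222 counts added to mt-Nd4l it was 0.229 points of counts; these were chosen after seeing the data. When single libraries were left out, the log2 fold change of mt-Atp8 ranged from 0.18 to 0.47 for genotype, 0.48 to 1.16 in females and 0.54 to 1.22 in the interaction, and with the muscle term it was 0.54 for genotype. The corresponding ranges were 0.18 to 0.42 for mt-Rnr2 in females, 0.05 to 0.23 for mt-Nd1 and 0.06 to 0.26 for mt-Nd3 in males, and 0.17 to 0.40 for mt-Rnr1 in the interaction. The share difference within sexes ranged from -0.0799 to 0.792 points in females and from -0.293 to 0.478 points in males, an alternative also chosen after seeing the data. In each contrast the 2 members of smallest p kept their direction under the alternatives run. Over all genes, edgeR called 1 and DESeq2 33 for genotype, 0 and 289 in females, 0 and 34 in males, and 0 and 279 for the interaction. No paired analysis was possible because the groups share no mouse number. Depth did not limit the 15 members, whereas the tRNAs could not be counted.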

Other observations

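Some ratios between members placed the labelled female wt libraries apart from the other 9, and others did not. The pattern was noticed after the values were seen and is given without a test. Counts of mt-Nd4l, which are 50% of those it shares with Gm10222, were set over those of mt-Nd4. The ratio was 0.0876 to 0.0897 in female P278KY and 0.0857 to 0.0925 in male P278KY. It was 0.0992 to 0.106 in female wt and 0.0836 to 0.0882 in male wt. The rRNA counts over the protein gene counts were 0.0823 to 0.0907 in female P278KY and 0.0791 to 0.0935 in male P278KY, against 0.0730 to 0.0748 in female wt and 0.0805 to 0.0885 in male wt. Counts of mt-Atp8 over those of mt-Atp6 also set these libraries apart, at 0.0972 to 0.182 in female wt. This ratio was 0.209 to 0.245 in female P278KY, 0.188 to 0.234 in male P278KY and 0.204 to 0.234 in male wt. The library labelled female wt 14, whose sex-linked genes went against its label, was among the 3 in each of these ratios. The TPM ratio of mt-Rnr2 to mt-Rnr1 ranged from 0.691 to 1.00 in P278KY and from 0.682 to 0.863 in wt, without such a separation. Nor did the TPM ratios of mt-Nd6 to mt-Nd5, mt-Cytb to mt-Co1 and mt-Co2 to mt-Co1 separate these libraries. In female wt they were 1.04 to 1.10, 0.530 to 0.570 and 0.951 to 1.11. In male wt they were 1.06 to 1.14, 0.535 to 0.568 and 1.04 to 1.06.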
